A study of Mus musculus with 9 samples.

Results

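The adrenergic receptors, adenylyl cyclases and receptor kinases described here are 9 genes that carry the signal of noradrenaline and adrenaline into the heart muscle cell: the receptors Adrb1, Adra1a and Adra1b, the G protein gene Gnas, the cyclases Adcy5, Adcy6 and Adcy1, and the receptor kinases Grk5 and Adrbk1. They were listed by symbol, and all 9 were found among the 13539 genes of the deposited table. RNA was sequenced from hearts of male C57BL/6JOlaHsd mice aged 12 weeks in 9 libraries, 3 for each of 3 groups. The first group was wild type for OMA1 and received isoproterenol, the second was OMA1 KO and non-treated, and the third was OMA1 KO and received isoproterenol. OMA1 is a protease of the inner mitochondrial membrane. Isoproterenol, a synthetic agonist of beta-adrenergic receptors, was given at 10 mg/kg per day for 7 days from implanted minipumps. Because the untreated knockout mice are described as non-treated, the drug and the implantation of the pump cannot be told apart. No untreated wild-type libraries were analysed here, so whether the genotype changed the response to isoproterenol could not be tested.

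In the heart, noradrenaline binds mainly the beta-1 receptor, which acts through the stimulatory G protein alpha subunit on adenylyl cyclases that make cAMP. cAMP activates protein kinase A, which raises the rate and force of contraction. Alpha-1 receptors act instead through Gq proteins on phospholipase C. G protein-coupled receptor kinases phosphorylate receptors that have bound their agonist, and arrestins then uncouple them from the G protein. Loss of beta-receptor density and a rise in receptor kinase activity are well known in failing hearts and under long exposure to agonist.

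The 9 libraries held from 6.93e+06 to 1.22e+07 reads, as recovered from the deposited values, and the precision derived from read numbers covers counting error only. Heart muscle markers (Myh6, Tnnt2, Tnni3, Actc1, Myl2, Ryr2 and Pln) summed to between 35900 and 46000 normalized counts in every library, as the tissue label says. Single markers differed by limma. Of the 7, 0 were higher and 2 lower (Actc1 and Pln) in treated against untreated knockout hearts. Between the treated groups 2 were higher (Tnnt2 and Tnni3) and 2 lower (Ryr2 and Pln) in knockout hearts. In treated wild-type against untreated knockout hearts 1 was higher (Ryr2) and 1 lower (Tnni3). The part of these differences in the values below was not tested. Oma1 averaged 19.9 ± 2.16 normalized counts (SD, n = 3) in the wild-type group, 7.42 ± 1.46 without treatment in the knockout and 6.24 ± 0.502 in the treated knockout group, and the gene-level value does not show which exons the remaining reads came from. Treated knockout replicate 2 and treated wild-type replicate 3 stood apart from their groups. The counts of treated knockout replicate 2 gave a chi-square per gene of 13.1 and 14.6 against its 2 partners, where the partners gave 2.71 against each other. Treated wild-type replicate 3 gave 15 and 11, where its partners gave 4.13. The labels give no animal numbers, so the p-values measure the spread between these libraries. In bulk RNA, fewer cells of a type and less RNA per cell cannot be told apart.

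Markers of several other cell types differed between the untreated group and both treated groups. All 5 markers of atrial muscle cells (Myl4, Myl7, Sln, Nppa and Bmp10) were lower in both treated groups than in untreated knockout hearts. All but Nppa passed the filter on low values only through the untreated libraries. Their summed level was 1130 to 2530 normalized counts in untreated knockout libraries, 87.8 to 119 in treated knockout libraries and 53.5 to 844 in treated wild-type libraries. The 844 belonged to treated wild-type replicate 3, where Nppa, the natriuretic peptide gene, alone stood at 842. Sln and Bmp10 were at 0 in all treated wild-type libraries, and Bmp10 in all treated knockout libraries. By edgeR and by DESeq2, 4 of the 5 passed in treated wild-type against untreated knockout hearts. Between the 2 treated groups 0 of these 5 markers passed by limma, edgeR or DESeq2, and 0, 1 and 0 had an unadjusted p under 0.05. Adipocyte markers moved the same way: Adipoq, Ucp1, Plin1 and Cfd summed to 17.8 to 70.0 in the untreated libraries and 0 to 0.518 in the treated ones. Of 5 endothelial markers, whose sums are given beside the cyclase Adcy4, 5 were higher in treated knockout and 4 in treated wild-type than in untreated hearts. Of 4 tested fibroblast markers, 3 and 4 were higher in the same order, and the list (Col1a1, Dcn, Pdgfra, Lum and Tcf21) summed to 588 to 615 in untreated, 786 to 807 in treated knockout and 717 to 1140 in treated wild-type libraries. Of 6 smooth muscle and pericyte markers, 4 were higher and 1 lower in treated knockout hearts and 2 were higher in treated wild-type hearts, with sums of 543 to 552 in untreated, 530 to 628 in treated knockout and 657 to 798 in treated wild-type libraries. Of 3 tested macrophage markers, 1 was higher in each treated group. No fibroblast, endothelial, smooth muscle or macrophage marker was at 0 throughout a group. Between the treated groups 0 of 4 fibroblast markers passed, and 2 of 6 smooth muscle and pericyte markers were lower in knockout hearts. The shares of all tested genes that passed, beside which these marker counts stand, follow in the next paragraph. Every difference from the untreated group given below stands beside these marker differences, whose part in it was not tested.

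Counts of the 9 genes were read against the share of all 8543 tested genes that passed limma's test at an adjusted p under 0.05. In treated knockout against untreated knockout hearts, 1 of the 9 was higher and 5 were lower, with a median log2 difference of -0.65. Of all tested genes, 51.4% passed in that comparison, 23.9% higher and 27.4% lower, with a median of -0.02. In treated knockout against treated wild-type hearts, 0 of the 9 were higher and 3 were lower, with a median of -0.20, and 27.8% of all genes passed, 12.0% higher and 15.9% lower, with a median of -0.01. At an unadjusted p under 0.05, 1 of the 9 (Gnas) was higher there, and DESeq2 called that gene while edgeR called 0 higher. In treated wild-type against untreated knockout hearts, which differ in genotype and treatment at once, 1 was higher and 4 were lower, with a median of -0.33. The background there was 33.2% in either direction, 16.4% higher and 16.9% lower, with a median of 0.01. All 9 genes passed the filter on low values, but Adcy1 did so only through the 3 untreated libraries and Adrb1 through those and 1 treated wild-type library. These counts are a description, and without both genes 4 of 7, 3 of 7 and 4 of 7 passed in the same order of comparisons. In treated against untreated knockout hearts the median of -0.65 is the value of Adrb1 itself. The middle value of the 7 there is -0.14, that of Adrbk1. Between the treated groups the median of -0.20 is again the value of Adrb1, and the middle value of the 7 is -0.27, that of Grk5. In treated wild-type against untreated knockout hearts the middle value of the 7 is -0.14, that of Adcy6. The 3 comparisons share libraries, so they are given side by side and not as independent results. In the same order, the 2 groups compared did not overlap for 7, 4 and 7 of the 9. Of all tested genes, 62.6%, 43.6% and 47.4% did not overlap, so lack of overlap was common.

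**Figure D1:**
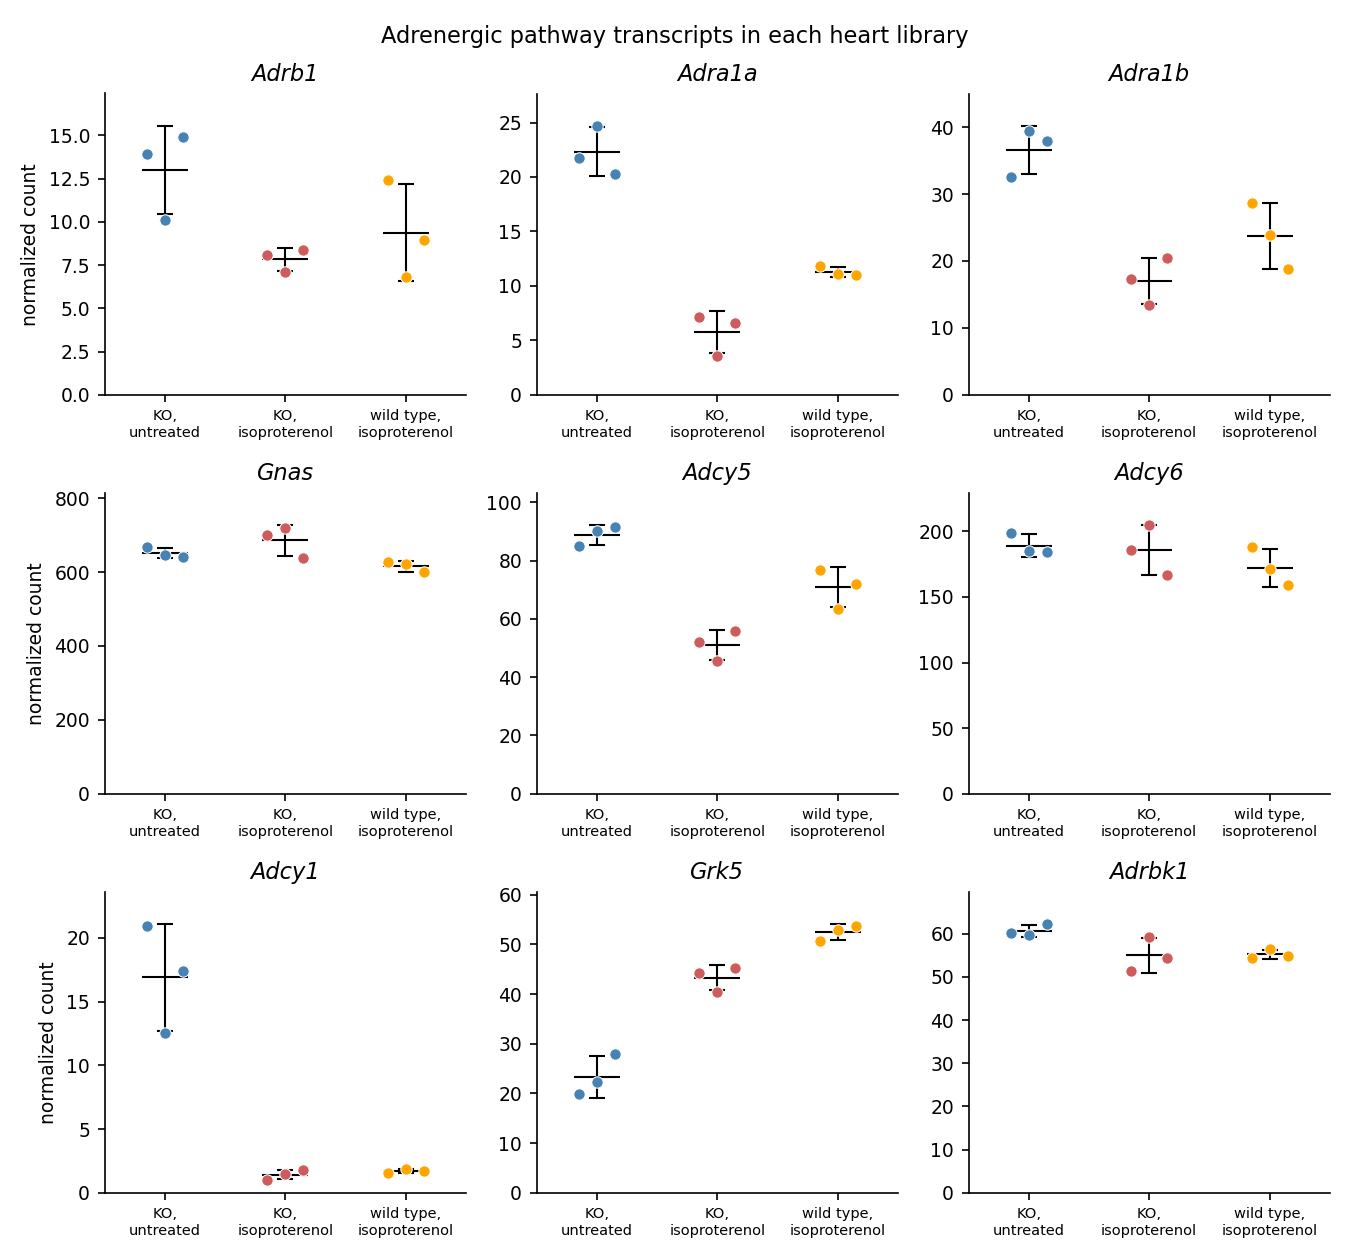
Normalized counts (vertical axes, linear, from 0) of the 9 genes in each library; dots are libraries, wide bars group means and whiskers 1 SD (n = 3), and KO stands for OMA1 knockout. Adra1a, Adra1b and Adcy5 step down from untreated knockout to treated wild-type to treated knockout hearts, Grk5 is higher in both treated groups (40.4 to 53.8) than in untreated hearts (19.8 to 28.0), and Adcy6, Adrbk1 and Gnas stay within narrow ranges.

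The sequences upstream of 5 of the genes are shown because these genes differed between treated and untreated hearts in at least 1 comparison, 4 downward and Grk5 upward. Each run is the 250 bases before a RefSeq transcription start (GRCm38.p6), written 5′ to 3′ on the strand of the gene. Capitals mark matches on either strand to TGACG (the core of a cAMP response element, contained in its full form TGACGTCA), to TGANTCA (the form bound by AP-1 factors) and to GGGCGG (the GC box of Sp1 family factors).

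Adrb1, chr19:56721867-56722116, plus strand: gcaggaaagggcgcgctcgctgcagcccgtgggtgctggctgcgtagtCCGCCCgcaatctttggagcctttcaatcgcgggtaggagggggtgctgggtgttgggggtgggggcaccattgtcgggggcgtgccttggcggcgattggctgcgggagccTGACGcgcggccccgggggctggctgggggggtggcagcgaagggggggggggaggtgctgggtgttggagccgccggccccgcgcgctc

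Adra1b, chr11:43901238-43901487, minus strand: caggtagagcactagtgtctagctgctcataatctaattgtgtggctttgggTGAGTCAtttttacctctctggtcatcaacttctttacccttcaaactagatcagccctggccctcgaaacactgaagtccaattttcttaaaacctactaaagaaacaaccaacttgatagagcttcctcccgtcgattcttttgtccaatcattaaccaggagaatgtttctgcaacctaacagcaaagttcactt

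Adcy1, chr11:7063183-7063432, plus strand: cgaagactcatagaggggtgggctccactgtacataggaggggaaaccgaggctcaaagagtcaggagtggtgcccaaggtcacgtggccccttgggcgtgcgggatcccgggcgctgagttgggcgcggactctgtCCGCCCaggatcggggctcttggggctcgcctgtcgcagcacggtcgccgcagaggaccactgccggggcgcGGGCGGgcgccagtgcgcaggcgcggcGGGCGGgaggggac

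Adcy5, chr16:35154614-35154863, plus strand: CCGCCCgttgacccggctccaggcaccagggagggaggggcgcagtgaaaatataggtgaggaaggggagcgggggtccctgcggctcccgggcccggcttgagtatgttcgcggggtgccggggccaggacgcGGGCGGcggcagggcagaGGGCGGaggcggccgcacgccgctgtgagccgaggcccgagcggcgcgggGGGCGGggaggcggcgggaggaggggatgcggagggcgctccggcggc

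Grk5, chr19:60889499-60889748, plus strand: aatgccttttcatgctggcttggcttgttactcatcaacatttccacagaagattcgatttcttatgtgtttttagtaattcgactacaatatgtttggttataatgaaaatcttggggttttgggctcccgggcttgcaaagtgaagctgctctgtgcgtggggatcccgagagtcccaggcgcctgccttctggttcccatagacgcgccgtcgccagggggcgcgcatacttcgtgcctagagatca

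The Adrb1 window held 1 TGACG and 1 GGGCGG, the Adra1b window 1 TGANTCA, the Adcy1 window 3 GGGCGG and the Adcy5 window 4 GGGCGG, and the Grk5 window held no match. A second Adra1b start, inside the gene, had 1 GGGCGG. GC content was 74.0% for Adrb1, 41.6% for the Adra1b window shown, 71.2% for Adcy1, 78.0% for Adcy5 and 49.6% for Grk5. Of the 32851 windows of the same length in the RefSeq table, 17.8% held TGACG, 1.55% TGACGTCA, 6.75% TGANTCA and 32.7% GGGCGG. None of the 5 windows held TGACGTCA. The matches are descriptions of letters, not of bound sites. Windows were found for 6 of the 9 genes, and Adra1a, Adcy6 and Adrbk1 are named only.

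Among the receptors, the alpha-1A receptor had the largest differences between groups. Adra1a (ENSMUSG00000045875, GRCm38 chromosome 14, 66635251 to 66771168, plus strand) encodes the alpha-1A adrenergic receptor, which couples to Gq in heart muscle cells. Its normalized counts were 21.7, 24.7 and 20.3 in untreated knockout hearts, 11.8, 11.1 and 11.0 in treated wild-type hearts, and 7.15, 3.54 and 6.57 in treated knockout hearts. No group overlapped another, though lack of overlap was common among all tested genes, as given above. Treated knockout replicate 2 was the lowest library. The treated knockout mean was 0.259 times the untreated one, a log2 difference of -1.82 ± 0.18 (SE) with a limma adjusted p of 5.3e-06. Against treated wild-type hearts it was 0.51 times as high, a log2 difference of -0.91 ± 0.18 (adjusted p = 0.0036, limma). Treated wild-type hearts in turn were 0.507 times the untreated knockout level, at -0.92 ± 0.18 (adjusted p = 0.0018, limma). Log2 differences here and below are of the normalized count plus 1, which understates the change of low genes. Without the 2 libraries that stand apart the first 2 values were -1.56 and -0.66, both still past the threshold (adjusted p = 5.7e-08 and 0.0024, limma).

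The alpha-1B receptor followed the same order. Adra1b (ENSMUSG00000050541, chromosome 11, 43774606 to 43901210, minus strand) encodes the other main alpha-1 receptor of heart muscle cells. It stood at 32.5, 39.4 and 37.9 in untreated knockout hearts, 28.7, 23.9 and 18.8 in treated wild-type hearts, and 17.3, 13.4 and 20.4 in treated knockout hearts. The untreated libraries lay above all treated ones, while the 2 treated groups overlapped, since treated knockout replicate 3 exceeded treated wild-type replicate 3. Against untreated knockout hearts the log2 difference was -1.07 ± 0.15 in treated knockout hearts and -0.61 ± 0.15 in treated wild-type hearts (limma adjusted p = 7.7e-05 and 0.0075).

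Between the treated groups Adra1b was lower in knockout hearts by a narrow margin, at -0.46 ± 0.15 (adjusted p = 0.039, limma). That call was lost in 13 of 26 other settings, and single libraries decided it. Leaving out treated knockout replicate 2 gave -0.31 (adjusted p = 0.17), and leaving out treated wild-type replicate 1 gave -0.32 (adjusted p = 0.15, both limma). Over all 26 settings the adjusted p ran from 0.0075 to 0.17. With both libraries that stand apart left out the value was -0.46 (adjusted p = 0.013, limma). Adra1b had 129 to 320 reads per library.

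The beta-1 receptor moved less. Adrb1 (ENSMUSG00000035283, chromosome 19, 56722199 to 56733113, plus strand) encodes the beta-1 receptor, the direct target of isoproterenol in heart muscle. Its counts were 13.9, 10.1 and 14.9 in untreated knockout hearts, 12.4, 6.8 and 8.94 in treated wild-type hearts, and 8.08, 7.09 and 8.36 in treated knockout hearts. The treated knockout libraries lay below all untreated ones, and the treated wild-type libraries spread over both groups. The log2 difference of treated from untreated knockout hearts was -0.65 ± 0.19 (adjusted p = 0.011, limma). It was called in 23 of 25 other settings. One of the exceptions was leaving out untreated replicate 3, with -0.54 (adjusted p = 0.052, limma), and the other the stricter threshold of 0.01.

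Neither comparison with treated wild-type hearts passed for Adrb1. Treated knockout against treated wild-type gave -0.20 (95% confidence interval -0.60 to 0.21, adjusted p = 0.45, limma). Treated wild-type against untreated knockout gave -0.45 (interval -0.85 to -0.04, adjusted p = 0.083, limma). Leaving out treated wild-type replicate 1, the highest treated library, gave -0.65 (adjusted p = 0.016) and leaving out untreated replicate 2 gave -0.61 (adjusted p = 0.043, both limma). At 59 to 135 reads per library, Adrb1 was among the least counted of the 9 genes.

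Other adrenergic receptors, Adrb3 and Adra1d, had low counts, and neither passed the filter. Adrb3, the beta-3 receptor best known from fat cells, stood at 2.17, 1.35 and 2.76 in untreated libraries and at 0 to 0.208 in all treated ones. The adipocyte markers given above were likewise present in the untreated libraries and at or near 0 in the treated ones, and their part in the Adrb3 values was not tested. Adra1d, the third alpha-1 receptor, stood at 2.42, 3.44 and 3.45 in untreated libraries, 1.96 to 2.66 in treated wild-type and 1.14 to 1.87 in treated knockout libraries.

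**Figure D2:**
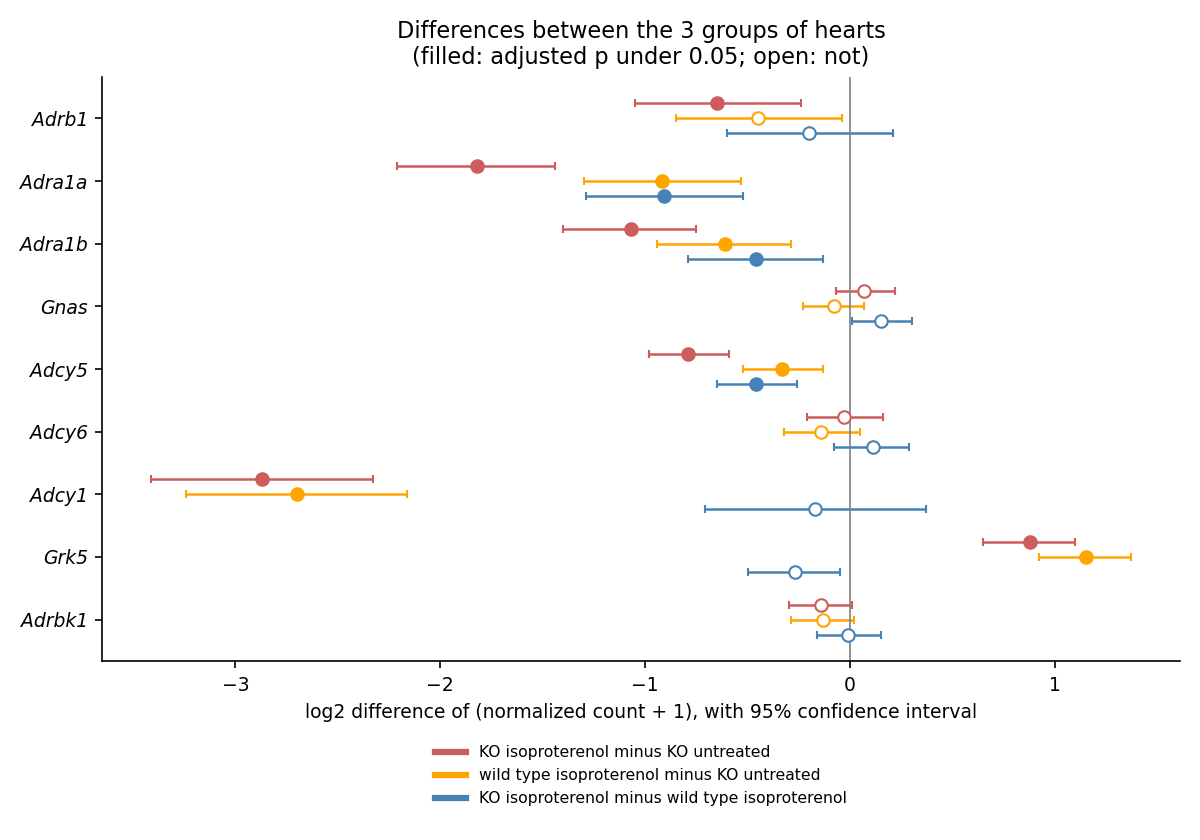
Log2 differences of the normalized count plus 1 (horizontal axis) with 95% confidence intervals from limma for the 9 genes in the 3 comparisons; filled circles have an adjusted p under 0.05, and KO stands for OMA1 knockout. Adcy1 and Adra1a lie furthest below 0 and Grk5 is the gene above 0 with filled circles, at 0.88 and 1.15.

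Gnas held nearly the same level in all groups. Gnas (ENSMUSG00000027523, chromosome 2, 174284320 to 174346744, plus strand) encodes the alpha subunit of the stimulatory G protein, which links beta receptors to the cyclases. Its counts were 667, 647 and 641 in untreated knockout hearts, 627, 621 and 599 in treated wild-type hearts, and 700, 720 and 639 in treated knockout hearts. Every treated knockout library lay above every treated wild-type library, by as little as 639 against 627. The log2 difference between these treated groups was 0.15 ± 0.07 and did not pass (interval 0.01 to 0.30, adjusted p = 0.11, limma). It did pass with 4 other ways of scaling or counting, at 0.26 with quantile scaling (adjusted p = 0.0074, limma), 0.25 with cyclic loess (adjusted p = 0.02), 0.20 with scaling to genes outside the mitochondrial genome (adjusted p = 0.029), and 0.18 with DESeq2 (adjusted p = 0.041). The correction for transcript length and GC content took it to 0.04, with and without a replicate block (adjusted p = 0.67 in both, limma). Neither edgeR nor voom called it.

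The remaining Gnas comparisons were smaller as deposited. Treated against untreated knockout hearts gave 0.07 (interval -0.07 to 0.22, adjusted p = 0.39, limma), which rose to 0.34 with quantile scaling (adjusted p = 0.00056, limma), to 0.28 with cyclic loess and to 0.18 with scaling to genes outside the mitochondrial genome. Treated wild-type against untreated knockout hearts gave -0.08 (interval -0.23 to 0.07, adjusted p = 0.38, limma), a value whose sign turned with quantile scaling, cyclic loess and the correction for transcript length and GC content, always short of the threshold. Gnas shares 988 exon bases with the antisense gene Nespas and 1469 with Gm20721 on the opposite strand. No source used here says whether counting used strand, so reads of these genes could not be told apart.

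Of the 2 main cyclases of heart muscle, Adcy5 fell and Adcy6 did not change past the threshold. Adcy5 (ENSMUSG00000022840, chromosome 16, 35154877 to 35305738, plus strand) and Adcy6 (ENSMUSG00000022994, chromosome 15, 98589973 to 98610076, minus strand) encode closely related enzymes that G protein alpha-s activates and calcium inhibits. Adcy5 counts were 85.0, 90.1 and 91.5 in untreated knockout hearts, 76.9, 63.4 and 72.0 in treated wild-type hearts, and 52.2, 45.7 and 55.8 in treated knockout hearts. The 3 groups did not overlap. Treated knockout hearts had 0.576 times the untreated level, a log2 difference of -0.79 ± 0.09 (adjusted p = 1.6e-05, limma). They had 0.724 times the treated wild-type level, at -0.46 ± 0.09 (adjusted p = 0.0035, limma).

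Both of these Adcy5 differences passed in all 26 other settings, and without the 2 libraries that stand apart they were -0.71 and -0.37. The difference of treated wild-type from untreated knockout hearts was smaller, at -0.33 ± 0.09 (adjusted p = 0.013, limma). It missed the threshold with the correction for transcript length and GC content, at -0.23 (adjusted p = 0.067). The same held when treated wild-type replicate 2 was left out, at -0.25 (adjusted p = 0.061, both limma).

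Adcy6 counts were 199, 185 and 184 in untreated knockout hearts, 188, 171 and 159 in treated wild-type hearts, and 186, 205 and 167 in treated knockout hearts, so all groups overlapped. The log2 difference of treated from untreated knockout hearts was -0.03 (95% confidence interval -0.21 to 0.16, adjusted p = 0.8, limma), and between the treated groups it was 0.11 (interval -0.08 to 0.29, adjusted p = 0.37, limma). Both intervals exclude a change as large as that of Adcy5. Adcy6 has 605 exon bases in common with Gm29331 on the opposite strand.

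Adcy1 had the widest difference of the 9 genes, and it separated the untreated from all treated hearts. Adcy1 (ENSMUSG00000020431, chromosome 11, 7063489 to 7178506, plus strand) encodes a cyclase that calcium and calmodulin activate, known from brain and from atrial and sinoatrial cells. Its counts were 20.9, 12.5 and 17.4 in untreated knockout hearts, 1.56, 1.84 and 1.73 in treated wild-type hearts, and 1.04, 1.46 and 1.78 in treated knockout hearts. These stand for 102 to 173 reads in an untreated library and for 10 to 22 in a treated one. The log2 difference from untreated hearts was -2.87 ± 0.25 in treated knockout and -2.70 ± 0.25 in treated wild-type hearts (limma adjusted p = 2.4e-06 and 7e-06), with means of 0.0842 and 0.101 times the untreated one. On recovered reads, edgeR gave -3.52 and -3.30, and with a pseudocount of 10 limma gave -1.23 and -1.19.

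The atrial markers moved with Adcy1. In the untreated hearts Myl7, the atrial myosin light chain gene, stood at 279, 131 and 189, so that replicate 1 was highest, replicate 3 next and replicate 2 lowest, as for Adcy1. Myl4, Sln, Nppa and Bmp10 had that same order of the 3 untreated libraries. In the treated libraries Myl7 was at 0 to 0.417 and Adcy1 at 1.04 to 1.84, which is 6.14% to 10.9% of the untreated mean for Adcy1 and at most 0.209% for Myl7. Between the treated groups, where 0 of the 5 atrial markers passed, the Adcy1 difference was -0.17 (interval -0.71 to 0.37, adjusted p = 0.64, limma). The part of atrial tissue in the Adcy1 difference was not tested.

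**Figure D3:**
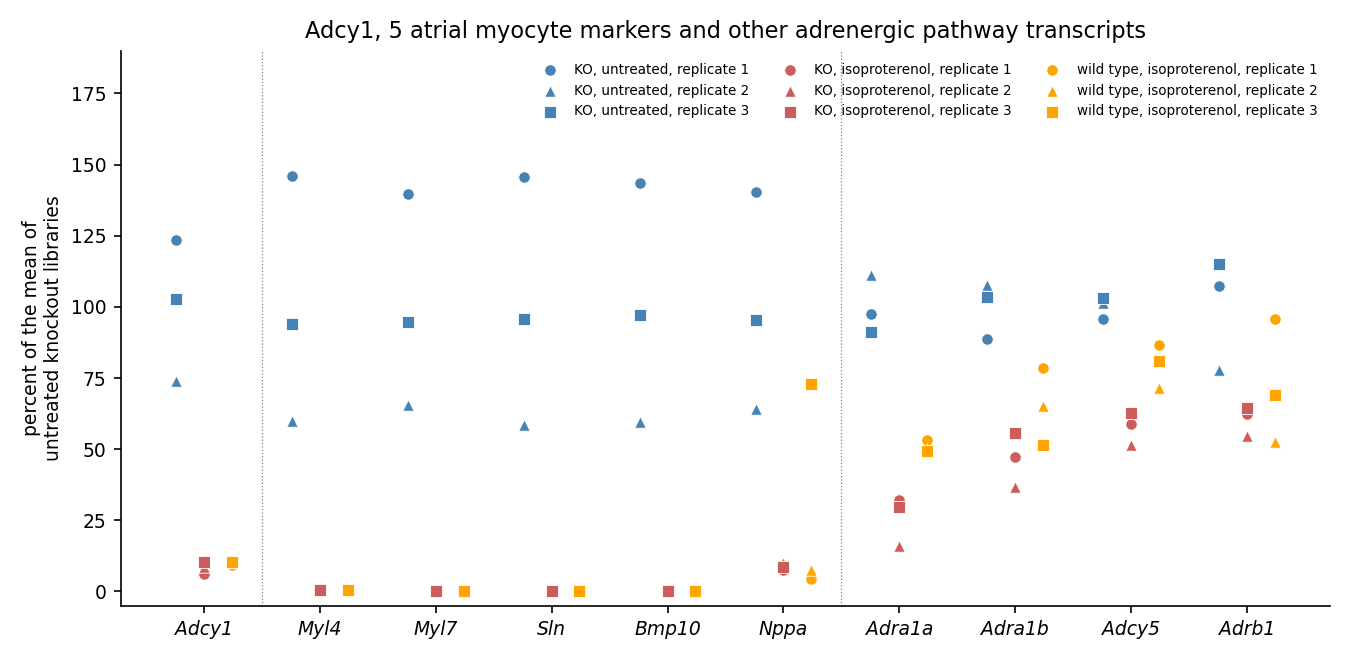
Level in each library as a percent of the mean of the 3 untreated knockout libraries (vertical axis) for Adcy1, for 5 atrial markers between the dotted lines, and for 4 other genes of the set; colour marks the group, shape the replicate, and KO stands for OMA1 knockout. Replicate 1 is highest and replicate 2 lowest among untreated libraries for Adcy1 and all 5 atrial markers, and Nppa in treated wild-type replicate 3 reaches 73.0%.

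The receptor kinase Grk5 rose and Adrbk1 did not pass the test. Grk5 (ENSMUSG00000003228, chromosome 19, 60889749 to 61095968, plus strand) encodes a membrane-bound kinase that desensitizes adrenergic receptors and can also enter the nucleus. Its counts were 19.8, 22.3 and 28.0 in untreated knockout hearts, 50.6, 52.9 and 53.8 in treated wild-type hearts, and 44.2, 40.4 and 45.3 in treated knockout hearts. The groups did not overlap, with treated wild-type hearts highest. Treated knockout hearts had 1.85 times the untreated level, a log2 difference of 0.88 ± 0.11 (adjusted p = 2.2e-05, limma), and treated wild-type hearts 2.24 times, at 1.15 ± 0.11 (adjusted p = 6.2e-06, limma). Both passed in all 26 other settings.

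Treated knockout hearts differed from treated wild-type hearts in Grk5 by -0.27 ± 0.11, short of the threshold (interval -0.50 to -0.05, adjusted p = 0.069, limma). Of 26 other settings 3 put it past the threshold: a fit on those 2 groups alone (adjusted p = 0.038), leaving out untreated replicate 1 (adjusted p = 0.048) and leaving out untreated replicate 3 (adjusted p = 0.027, all limma). Without the 2 libraries that stand apart it was -0.21 (adjusted p = 0.24, limma).

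Adrbk1 (ENSMUSG00000024858, chromosome 19, 4286001 to 4306222, minus strand), named Grk2 in the GENCODE annotation, encodes the cytosolic beta-adrenergic receptor kinase that G protein beta-gamma subunits bring to the membrane. Its counts were 60.2, 59.6 and 62.3 in untreated knockout hearts, 54.4, 56.4 and 54.9 in treated wild-type hearts, and 51.3, 59.3 and 54.4 in treated knockout hearts. All treated libraries were below the untreated ones, by as little as 59.3 against 59.6. The log2 difference of treated from untreated knockout hearts was -0.14 (interval -0.30 to 0.01, adjusted p = 0.12, limma). It passed at -0.20 without treated knockout replicate 2 (adjusted p = 0.038) and without both libraries that stand apart (adjusted p = 0.026, both limma). Treated wild-type against untreated knockout hearts gave -0.13 (interval -0.29 to 0.02, adjusted p = 0.17, limma). Between the treated groups it was -0.01 (interval -0.16 to 0.15, adjusted p = 0.95, limma), a value that turned sign with scaling, without passing the test.

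Ratios between related genes were taken within each library, which removes its scaling. The ratio of Grk5 to Adrbk1 averaged 0.384 ± 0.0611 (SD, n = 3) for untreated knockout, 0.792 ± 0.0966 for treated knockout and 0.95 ± 0.0268 for treated wild-type libraries, and no group overlapped another. The ratio of Adcy5 to Adcy6 was 0.471 ± 0.0387, 0.279 ± 0.0556 and 0.412 ± 0.0416 in the same order. Its treated knockout libraries, at 0.223 to 0.334, lay below all others, while the other 2 groups overlapped. The ratio of Adra1a to Adra1b was 0.611 ± 0.0679, 0.333 ± 0.0753 and 0.486 ± 0.0869, so the 2 alpha-1 receptor transcripts did not keep a fixed proportion. Treated knockout libraries reached 0.413 for this ratio and treated wild-type libraries began at 0.412. These ratios are of counts, not of counts per length, and show unequal change only.

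**Figure D4:**
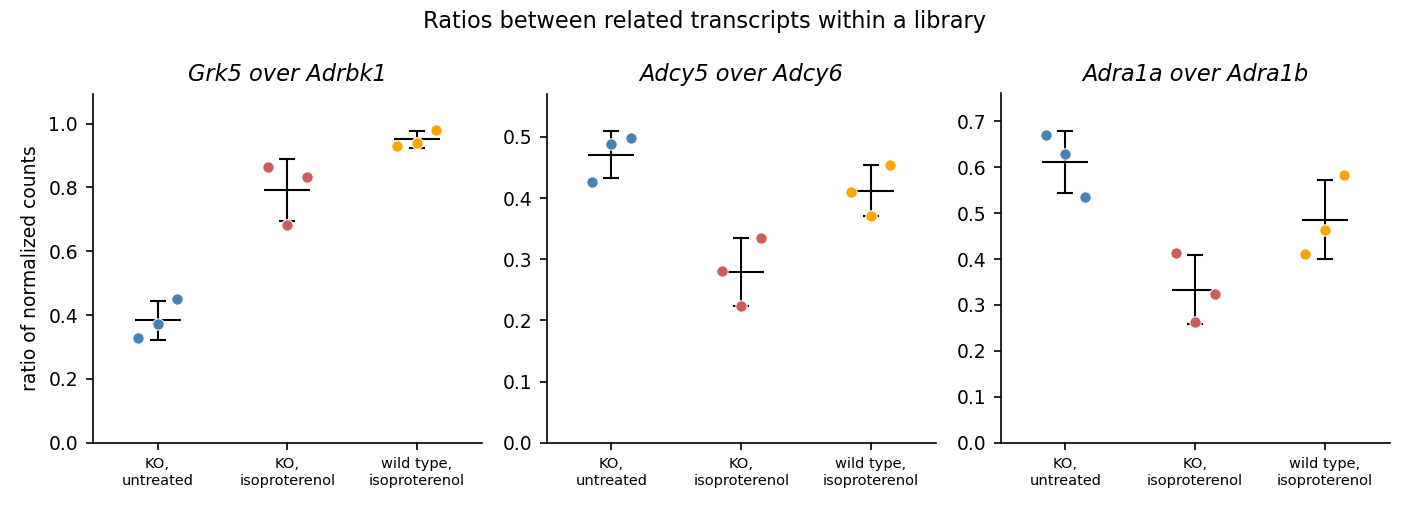
Ratios of normalized counts within each library (vertical axes, linear, from 0) for 3 pairs of related genes; dots are libraries, wide bars means and whiskers 1 SD (n = 3), and KO stands for OMA1 knockout. Grk5 over Adrbk1 is lowest in untreated hearts (0.329 to 0.45), and Adcy5 over Adcy6 is lowest in treated knockout hearts (0.223 to 0.334).

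Levels of different genes were compared per kilobase of the longest coding transcript. In untreated knockout hearts Gnas was highest at 165 ± 3.51 normalized counts per kilobase, followed by Adcy6 at 31.3 ± 1.46, Adrbk1 at 18.0 ± 0.419, Adcy5 at 12.7 ± 0.484 and Adra1b at 11.0 ± 1.08. Adra1a at 5.2 ± 0.525, Adrb1 at 4.39 ± 0.863 and Grk5 at 3.55 ± 0.643 followed, and neighbours among these 3 did not differ beyond their SDs. Adcy1 was last at 1.38 ± 0.342. In treated knockout hearts Grk5 had moved up to the fifth place, at 6.58 ± 0.387 per kilobase, beside Adcy5 at 7.31 ± 0.735, from which its SD did not separate it. Adra1b at 5.11 ± 1.04, Adrb1 at 2.66 ± 0.226, Adra1a at 1.34 ± 0.452 and Adcy1 at 0.116 ± 0.0306 came next. Treated wild-type hearts had Grk5 at 7.97 ± 0.251 beside Adra1b at 7.15 ± 1.48, and Adrb1 at 3.18 ± 0.953 beside Adra1a at 2.64 ± 0.111, each pair within its SDs.

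The genes whose pattern was most like each member were found by Pearson's r of log2 levels over the 9 libraries, which share the differences between the 3 groups, so r is a description. Adcy1 was most like Sln, Bmp10 and Mybphl (r = 0.995, 0.995 and 0.994), of which Sln and Bmp10 are in the atrial list. Adra1a was most like Pkia, which encodes an inhibitor of protein kinase A (r = 0.994), with Chpt1 and Yae1d1 next (both 0.993). Pkia averaged 269 normalized counts in untreated knockout, 187 in treated wild-type and 127 in treated knockout hearts. Adra1b was most like the autophagy genes Ulk1 and Atg9a (r = 0.988 and 0.987) and Wdtc1 (0.986). Adcy5 was most like the histone deacetylase gene Hdac9 (0.993), Pcdh7 (0.991) and Myo5b (0.989). Grk5 was most like Gnb4, a G protein beta subunit gene (0.987), the laminin gene Lamc1 (0.984) and Cpm (0.983). For the genes that moved less, r was lower: Zfp518a, Socs6 and Bcl9l reached 0.921 to 0.937 for Adrb1, Dohh, Bag3 and Letm1 0.883 to 0.911 for Adcy6, Mettl17, Ccm2 and Dhx30 0.916 to 0.926 for Adrbk1, and Coro6, AI462493 and H2afj 0.922 to 0.940 for Gnas.

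Other genes of the pathway were taken from 10 further lists of 125 genes in all, of which 109 were in the table and 74 were tested. The lists were chosen with earlier results of these data known, so their shares are a description. Among the tested genes, Ramp1 and Adora1 passed the filter only through untreated libraries, and Crem and Gngt2 only through treated ones. Of these 74, 34 were higher and 20 lower in treated than in untreated knockout hearts, which is 73.0% against the 51.4% of all tested genes. Counts of single lists below stand beside the same shares of all tested genes. Between the treated groups 16 were higher and 13 lower in knockout hearts (39.2% against 27.8%), and 23 were higher and 11 lower in treated wild-type than in untreated knockout hearts (45.9% against 33.2%). The median log2 differences were 0.18, 0.05 and 0.11 in that order, beside -0.02, -0.01 and 0.01 for all tested genes and -0.65, -0.20 and -0.33 for the 9. As given above, -0.65 and -0.20 are values of Adrb1. Without Adrb1 and Adcy1 the middle values are -0.14, -0.27 and -0.14 in that order.

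Among the other cyclases, Adcy4 and Adcy7 rose and Adcy9 fell in treated against untreated knockout hearts. Adcy4 stood at 19.4, 18.4 and 19.3 in untreated knockout hearts, 22.5, 23.4 and 27.4 in treated wild-type hearts, and 35.6, 46.9 and 33.6 in treated knockout hearts, with no overlap between groups. Its log2 difference was 0.97 against untreated knockout and 0.63 against treated wild-type hearts (limma adjusted p = 2e-05 and 0.0023). Adcy9, a widely expressed cyclase, stood at 17.5, 23.5 and 21.3, then 21.1, 18.7 and 14.5, then 10.6, 6.98 and 10.1 in the same order of groups. Treated knockout hearts were thus below both other groups, by -1.10 and -0.91 (limma adjusted p = 9.9e-05 and 0.0022), and the other 2 groups overlapped at -0.19 (adjusted p = 0.38, limma). Adcy7 was at 16.1 to 19.2 in untreated libraries and 23.9 to 43.3 in all treated ones. Adcy3 and Adcy8 were below the filter, at 2.95 to 7.61 and 0.568 to 1.87 over all libraries.

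Endothelial markers moved with the cyclase Adcy4. All 5 (Pecam1, Cdh5, Kdr, Tie1 and Fabp4) were higher in treated than in untreated knockout hearts, 4 of 5 were higher in treated knockout than in treated wild-type hearts, and none was at 0. Their sum was 847 to 955 in untreated, 1230 to 1370 in treated wild-type and 1590 to 1890 in treated knockout libraries. G protein subunit, scaffold and effector genes with the same order of groups are named below, and the part of endothelial RNA in any of these was not tested.

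Of the other receptor kinases and arrestins, which end receptor signalling together with Grk5 and Adrbk1, 4 of 6 were tested. Grk6 was higher in treated knockout than in treated wild-type hearts by 0.31 and than in untreated knockout hearts by 0.24 (limma adjusted p = 0.027 and 0.046). Arrb2, the beta-arrestin 2 gene, was at 11.3, 19.2 and 14.2 in treated knockout against 8.82, 7.87 and 10.5 in untreated knockout hearts, at 0.64 (adjusted p = 0.0086, limma). Arrb1, the more abundant arrestin at 29.4 to 41.9, and Adrbk2, at 16.5 to 22.6, did not pass in any comparison. Grk1 and Grk4 were below the filter in all libraries, at most 4.35.

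Among G protein subunit genes, Gnai2 and Gnai3 were higher in both treated groups than in untreated knockout hearts. Of 16 tested, 6 were higher and 3 lower in treated than in untreated knockout hearts, where 51.4% of all tested genes passed. Gnai2, an inhibitory alpha subunit gene, stood at 163, 175 and 168 in untreated, 208, 226 and 230 in treated wild-type, and 246, 272 and 240 in treated knockout hearts. Its log2 difference was 0.58 in treated knockout and 0.39 in treated wild-type hearts against untreated ones (limma adjusted p = 3.1e-05 and 0.0013). Gnai3 rose by 0.61 in the first of these, while Gnao1, another member of the inhibitory family, fell by 0.83 (limma adjusted p = 5.4e-05 and 5.2e-05). The gamma subunit genes Gng11 and Gngt2 rose by 0.97 and 1.31 (limma adjusted p = 6.3e-06 and 3e-05). Gnai2, Gng11 and Gngt2 had the same order of groups, without overlap, as the sum of the endothelial markers given above, and the part of endothelial RNA in them was not tested. Of the 16, 4 were higher and 1 was lower in treated knockout than in treated wild-type hearts, among them Gng10 at 0.66 and Gna13 at -0.27 (limma adjusted p = 0.0013 and 0.022). In treated wild-type against untreated knockout hearts 6 were higher and 4 lower.

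Of 7 tested regulators of G proteins, 2 were higher and 2 lower in both treated groups than in untreated hearts. Of all tested genes, 51.4% passed for treated knockout and 33.2% for treated wild-type hearts against untreated ones. Rgs5 and Rgs4, which speed the return of Gi and Gq proteins to rest, rose by 0.84 and 0.56 in treated knockout hearts, and Gpsm1 and Ric8b fell by 0.70 and 0.60 (limma adjusted p = 6.1e-06, 0.0018, 1.3e-05 and 0.00031). Of the 6 smooth muscle and pericyte markers, 4 were higher there and 1, Abcc9, was lower. In treated wild-type hearts Rgs5 and Rgs4 rose by 0.79 and 0.66 (limma adjusted p = 2.1e-05 and 0.0011), where 2 of those markers were higher. The part of these cells in the Rgs5 and Rgs4 values was not tested. Rgs3 was higher in treated knockout than in treated wild-type hearts, at 0.38 (adjusted p = 0.0069, limma).

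Among 6 tested receptors and receptor partners that also act on cardiac cyclases, 3 rose and 3 fell in treated knockout hearts. Of those that fell, Adora1 and Ramp1 passed the filter on low values only through the untreated libraries, so their calls are a description. Chrm2, the muscarinic receptor that opposes beta-receptor signalling through inhibitory G proteins, stood at 150, 161 and 145 in untreated knockout, 119, 102 and 102 in treated wild-type, and 60.8, 51.2 and 66.7 in treated knockout hearts. The groups did not overlap, as for Adra1a and Adcy5. Its log2 difference was -1.34 against untreated knockout and -0.85 against treated wild-type hearts (limma adjusted p = 8.4e-07 and 0.0002). The adenosine A1 receptor gene Adora1 was at -1.11 and -0.48, of which the second did not pass (limma adjusted p = 0.00017 and 0.054). Ramp1, which encodes a partner of the calcitonin receptor-like receptor, was at 11.2 to 12.8 in untreated and 1.47 to 2.07 in all treated libraries. Calcrl, that receptor itself, rose by 0.52 in treated against untreated knockout hearts (adjusted p = 0.00018, limma). Adora2a and Ramp2 were higher in treated knockout than in treated wild-type hearts, at 0.54 and 0.37 (limma adjusted p = 0.015 and 0.0063), and Chrm2 was the 1 lower gene.

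Scaffolds that hold receptors and cyclases together changed in both directions. Of 10 tested, 5 were higher and 3 lower in treated than in untreated knockout hearts, and 3 were higher and 4 lower in treated knockout than in treated wild-type hearts. Akap12, which encodes an anchoring protein for protein kinase A, rose by 1.22 over untreated knockout hearts, and Cav1, the caveolin-1 gene, by 0.86 (limma adjusted p = 5.5e-07 and 1.4e-06). Slc9a3r2 rose by 0.69 in that comparison and by 0.56 over treated wild-type hearts (limma adjusted p = 4.1e-05 and 0.0013). Akap6, the muscle anchoring protein that gathers protein kinase A at the nuclear envelope, fell by 0.83 and by 0.68 in the same comparisons (limma adjusted p = 5e-05 and 0.0014). Its counts were 182, 175 and 164 in untreated, 172, 151 and 148 in treated wild-type, and 102, 79.5 and 114 in treated knockout hearts.

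cAMP effectors other than protein kinase A showed 1 higher and 3 lower of 6 in treated against untreated knockout hearts. Rapgef3, which encodes the cAMP-activated exchange factor Epac1, rose by 0.84 and by 0.49 over treated wild-type hearts (limma adjusted p = 8.6e-06 and 0.0023). The channel gene Hcn2 fell by 0.82 and the cAMP-binding membrane protein gene Popdc2 by 0.43 against untreated knockout hearts (limma adjusted p = 0.00015 and 0.0013). Between the treated groups 1 was higher and 2 were lower in knockout hearts, the latter being Bves at -0.43 and Popdc2 at -0.31 (limma adjusted p = 0.015 and 0.02).

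Of 9 tested effectors downstream of the alpha-1 receptors, 6 were higher and 2 lower in treated against untreated knockout hearts. The phospholipase gene Plcb4 rose by 0.36 and the calcium channel gene Itpr2 by 0.51, and the kinase gene Prkca fell by 0.54 (limma adjusted p = 0.002, 0.0038 and 0.00042). Prkca was also lower in treated knockout than in treated wild-type hearts, at -0.67, and Dgkz, a kinase that removes diacylglycerol, was higher, at 0.49 (limma adjusted p = 0.00067 and 0.0026).

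Crem, Sik1 and Pde4b, which cAMP signalling is known to induce, were higher in both treated groups than in untreated knockout hearts. Other genes of their list did not follow, as given below. For treated wild-type hearts that comparison differs in genotype as well, and Crem passed the filter only through treated libraries. Of 13 tested genes of cAMP and CREB signalling, 7 were higher and 3 lower in treated than in untreated knockout hearts, 3 higher and 1 lower in treated wild-type hearts, and 2 higher and 3 lower between the treated groups. Crem, which encodes a repressor and activators of cAMP response elements, was at 5.8, 5.78 and 4.97 in untreated, 9.17, 11.9 and 12.2 in treated wild-type, and 12.3, 11.9 and 13.1 in treated knockout hearts. Its difference from untreated hearts was 1.04 in treated knockout and 0.88 in treated wild-type hearts (limma adjusted p = 4e-05 and 0.00032). The salt-inducible kinase gene Sik1 was higher by 1.25 and 0.96 and the phosphodiesterase gene Pde4b by 0.56 and 0.87 in the same comparisons (limma adjusted p at most 0.00099). Crtc1 of the same list was lower in both, at -0.36 and -0.47 (limma adjusted p = 0.014 and 0.005). Ppargc1a was lower in treated knockout hearts, by -0.37 against untreated knockout and -0.29 against treated wild-type hearts (limma adjusted p = 0.0035 and 0.029). Fos, below the filter, averaged 8.6 in untreated, 3.92 in treated wild-type and 3.86 in treated knockout hearts. Against untreated hearts, Nr4a1 and Per1 were higher in treated knockout hearts (limma adjusted p = 0.027 and 0.001). Neither passed in treated wild-type hearts, and Dusp1 passed in neither group. Another phosphodiesterase gene, Pde4d, was lower in treated knockout hearts than in both other groups, by -0.82 in each case (limma adjusted p = 0.00052 and 0.0023). Pde4d appears with 2 identifiers in the table, and the one with more reads was used.

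**Figure D5:**
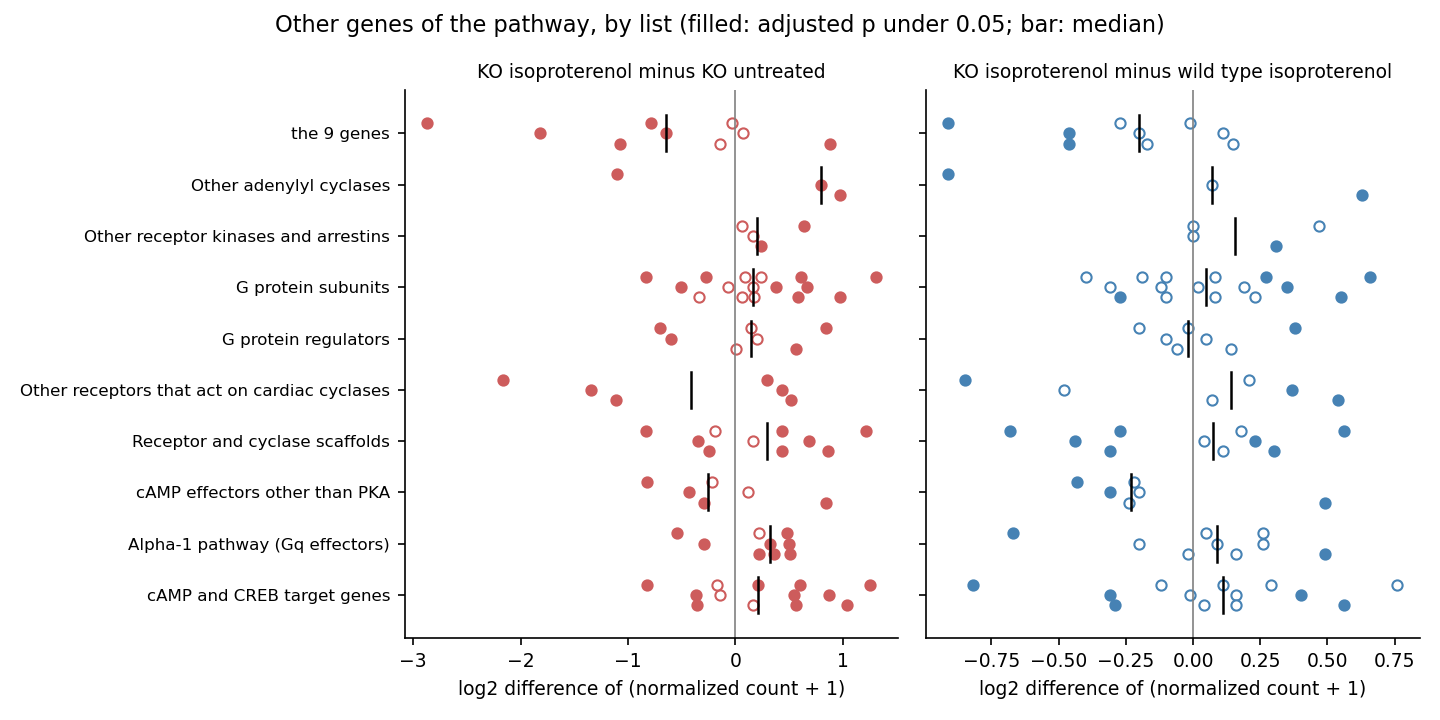
Log2 differences of the normalized count plus 1 (horizontal axes, which differ in range) for the 9 genes and for the tested genes of 9 other lists, in treated against untreated knockout hearts (left) and treated knockout against treated wild-type hearts (right); filled circles have an adjusted p under 0.05, bars mark list medians, and KO stands for OMA1 knockout. The median of the 9 genes on the left, -0.65, is the value of Adrb1. Without Adrb1 and Adcy1 the middle value of the others there is -0.14, that of Adrbk1. On the right the median, -0.20, is also the value of Adrb1, and without both genes the middle value is -0.27, that of Grk5.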

How the data were processed

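Gene-level values of 9 heart libraries were analysed, 3 in each of 3 groups taken from the sample labels. Cutadapt, RSEM 1.17 and limma are named as tools and GRCm38 as the build, per the submitters' processing notes; for the aligner, strand setting and scaling, the method was not given in the sources used. The authors deposited a signal per gene, normalized expected counts, called normalized counts in the text. Within each library 100% of values were whole multiples (within 0.02 reads) of 1 value per read, so reads were recovered. No column was left unused. 232 of the 13539 rows of the deposited table carried no gene symbol.

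Values were tested as log2(value + 1) with limma 3.58.1 (R 4.3.3) and a mean-variance trend, all 3 groups in 1 fit, over the 8543 genes with at least 10 in at least 3 libraries. Tests were two-sided, with Benjamini-Hochberg adjustment over all tested genes and a threshold of 0.05. The 9 members and all lists were chosen with earlier results of these data known. Named are the 9, Oma1, at most 4 genes of smallest p per other list and comparison, any gene of the receptor, cyclase, kinase and arrestin lists, and the 3 genes of highest Pearson r per member. A gene of these lists is not reported here. Tested on simulated data, the limma step recovered 83% of 100 genes changed 1.5-fold and 99% of 100 changed 2-fold among 8496 genes for treated knockout against treated wild type, with 8 false calls. Among 8498 genes it recovered 76% and 96% for treated against untreated knockout and 77% and 99% for treated wild type against untreated knockout, with 7 false calls each. The simulation gave every gene the same dispersion, changed far fewer genes than were called here and held no libraries that stand apart. Its rates may therefore not hold for these data. Alternatives were other pseudocounts, filters, scalings, a length and GC correction, a replicate block, each library left out, and, added after seeing the data, edgeR 4.0.16, DESeq2 1.42.0 and voom on recovered reads and both libraries that stand apart left out. On those reads edgeR called 2429, 4347 and 2799 genes, where limma called 2379, 4388 and 2839, for treated knockout against treated wild type, treated against untreated knockout, and treated wild type against untreated knockout. Coordinates are from GENCODE M21 and promoter sequences from RefSeq (GRCm38.p6).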

Additional observations from a re-analysis of the deposited data

How the results depend on the processing

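Over 26 other settings the number of the 9 genes past the threshold ran from 2 to 4 for treated knockout against treated wild type, 4 to 7 for treated against untreated knockout, and 4 to 6 for treated wild type against untreated knockout. No member's call reversed. The count over all genes in the first comparison, 2379, fell to 1576 with the length and GC correction, to 1394 with that correction and a replicate block, and to 959 at a threshold of 0.01. Leaving out 1 library at a time gave 1336 (without treated knockout replicate 2) to 2382. The third comparison's 2839 became 1642 at a threshold of 0.01, and leaving out 1 library gave 1957 (without untreated replicate 2) to 3087. For these drops, apart from those at the stricter threshold, the cause was not tested. Scaling to genes outside the mitochondrial genome moved the share of higher genes among those called from 43% to 56.8%, from 46.6% to 63.3% and from 49.3% to 62.2%. Genes of that genome held 33.86% to 34.58% of the signal in untreated, 36.67% to 37.26% in treated wild-type and 38.16% to 42.46% in treated knockout libraries. The highest share was that of treated knockout replicate 2. Its part in the differences given above was not tested beyond this scaling. The pseudocount of 10 moved Adra1a to -0.44, -1.04 and -0.60 and Adrb1 to -0.36 in treated against untreated knockout hearts, and called values of Adcy1 as given above. Same-numbered libraries did not deviate together (correlations from -0.14 to 0.183), so the numbers were not taken as pairs. With the replicate block 2, 6 and 6 of the 9 and 2258, 4316 and 2755 of all genes passed; Adra1b between the treated groups missed the threshold (adjusted p = 0.054, limma) and Adrb1 in treated wild-type against untreated knockout hearts passed it (adjusted p = 0.035, limma). Adcy1 could not be fitted without an untreated library or at a filter of 20, and Adrb1 not at that filter. Low counts of Adcy1 in treated libraries (10 to 22 reads) limit the size of its difference.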
